A study of Mus musculus with 6 samples.

Results

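The genes described here handle zinc in pancreatic islets of hIAPP_Tg mice and wild-type mice. They are 10 genes fixed by name: 4 of the Slc30a family (Slc30a1, Slc30a5, Slc30a7 and Slc30a8), 3 of the Slc39a family (Slc39a6, Slc39a7 and Slc39a14), the metallothioneins Mt1 and Mt2, and the transcription factor gene Mtf1. All probe sets annotated to exactly one of these symbols were taken, which gave 23 of the 45037 probe sets tested and 10 of the 18193 genes named on the array. Islets came from 3 hIAPP_Tg mice (replicates 4 to 6) and 3 wild-type mice (replicates 1 to 3) of 12 weeks of age on standard chow, with 1 Affymetrix array per mouse. Both genotypes carry one strain name in the labels, FVB/N-Tg(Ins2-IAPP)RFHSoel/J, which stands for human islet amyloid polypeptide driven by an insulin gene promoter of beta cells. That wild-type mice lack the transgene is thus known from the genotype label alone, and the arrays, made for mouse transcripts, do not check it. Values are log2 RMA values as deposited, and each difference is hIAPP_Tg minus wild type.

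Zinc is carried into the cytosol by the ZIP proteins, which the Slc39a genes encode, and out of the cytosol, into organelles or across the plasma membrane, by the ZnT proteins of the Slc30a genes. Metallothioneins are small cysteine-rich proteins that bind zinc and other metals in the cytosol. When free zinc rises, MTF1 binds metal response elements in the promoters of Mt1, Mt2 and Slc30a1 and activates them in mouse cells. Beta cells are among the most zinc-rich cells of the body, because insulin is stored in granules as crystals with zinc, and Slc30a8 encodes the granule transporter that supplies it.

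No zinc gene passed the test between genotypes. In limma 0 of the 23 probe sets had an adjusted p under 0.05, where 13 of all 45037 did (0.0289%, of which 0.0266% higher and 0.00222% lower in hIAPP_Tg islets). At an unadjusted p under 0.05 there was 1 of 23, higher in hIAPP_Tg islets, while 7.33% of all probe sets reached this level (3.82% higher and 3.51% lower). With an ordinary linear model in place of limma the count was 0 of 23. The arrays of the genotypes overlapped for all 23 probe sets, against a background of 6.66% of probe sets without overlap. Differences of the members ran from -0.40 to 0.40 on the log2 scale, so 0 reached a size of 0.5 (1.16% of all probe sets). Of the 23, 13 were above 0, 7 below 0 and 3 at 0, beside 20138, 19643 and 5256 of all 45037. On the brightest probe set of each gene 8 of the 10 members lay above 0 and 2 below, beside 8739 and 7359 of 18193 named genes. The median over the brightest probe set of each of the 10 genes was 0.083, beside 0 over all named genes. It was 0.033 with quantile normalization, 0.051 with the acinar marker mean as a covariate, 0.15 without hIAPP_Tg replicate 4 and 0 without wild-type replicate 1.

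Mice of one genotype differed more in Mt1 and Mt2 than the genotype means did. The range over the 6 arrays was at least 1 for 4 of the 23 probe sets, and for 3.34% of all probe sets. All 3 probe sets of Mt1 and Mt2 were among these 4, and the remaining one belonged to Slc39a6. The plot of the values by mouse shows Mt1 and Mt2 with the widest scatter of the 10 genes and the transporters close together.

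**Figure D1:**
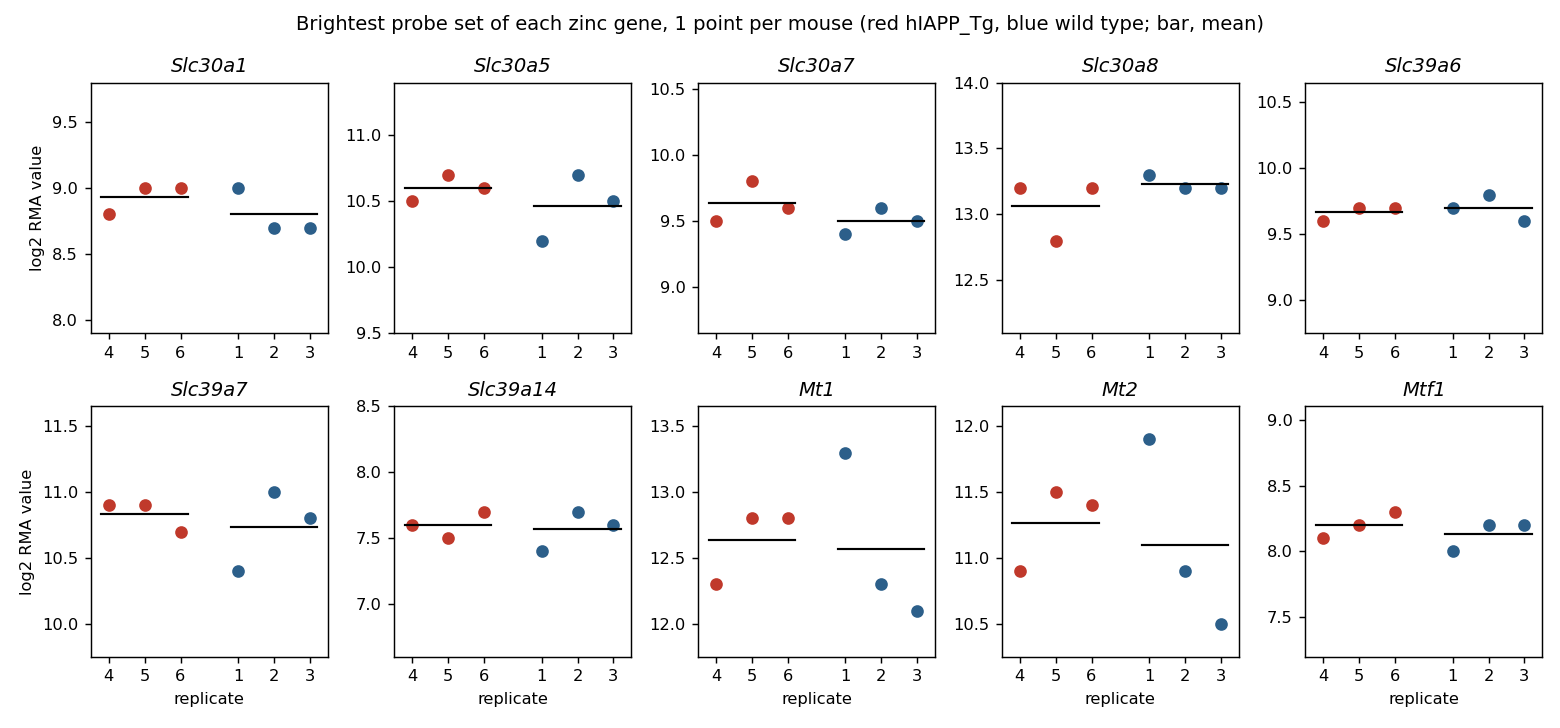
Log2 RMA value of the brightest probe set of each of the 10 genes (y axis, the same height of scale in every panel) for hIAPP_Tg replicates 4, 5 and 6 (red) and wild-type replicates 1, 2 and 3 (blue), with the mean of each genotype as a bar. Mt1 spans 12.1 to 13.3 and Mt2 10.5 to 11.9, with both ends of each range in wild-type mice.

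Slc30a8 encodes ZnT8, the transporter of the insulin granule and a known autoantigen of type 1 diabetes in humans. Its single probe set (1444027_at) read 13.2, 12.8 and 13.2 in hIAPP_Tg islets, against 13.3, 13.2 and 13.2 in wild-type islets. The genotypes met at 13.2, and hIAPP_Tg replicate 5 alone lay below the other arrays. Slc30a8 averaged 13.07 ± 0.23 in hIAPP_Tg and 13.23 ± 0.058 in wild-type mice (SD, n = 3 per genotype; log2 difference -0.17, SE 0.12, limma adjusted p = 0.770). The 95% interval of the difference was -0.46 to 0.13, which as a ratio of Slc30a8 levels is 0.728 to 1.09. Without hIAPP_Tg replicate 5 the Slc30a8 difference was -0.033.

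The array of hIAPP_Tg replicate 5 was also the lowest in the mean of the markers of beta, alpha, delta and acinar cells. Its mean of the duct markers (6.5) was the highest of the 6 arrays. Of 9 beta-cell markers 7 were measured, and their mean was 12.84, 12.69 and 12.89 in hIAPP_Tg and 13.0, 12.93 and 12.84 in wild-type islets. Single beta-cell markers did not all move alike. Nkx6-1 (10.6), Pdx1 (10.0) and G6pc2 (13.5) were lowest on this array, while Ins2 (15.1 on every array), Iapp (15.0) and Ucn3 (11.9) were not lower there. Slc2a2, the beta-cell glucose transporter gene, read 13.3, 12.7 and 13.1 in hIAPP_Tg islets, against 13.3, 13.5 and 13.4 in wild-type islets, with its low value on the same array as that of Slc30a8. Its difference was -0.37 and did not pass (limma adjusted p = 0.632). The part of this array's cell content in the Slc30a8 value was not tested. In whole islets, fewer cells of a type and less RNA per cell cannot be told apart.

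Slc30a5 and Slc30a7 encode ZnT5 and ZnT7, which load zinc into the early secretory pathway and the Golgi. Slc30a5 (1422497_at) read 10.5, 10.7 and 10.6 in hIAPP_Tg islets, against 10.2, 10.7 and 10.5 in wild-type islets. Only wild-type replicate 1 was apart, at the low end, and without it the Slc30a5 difference of 0.13 became 0. Slc30a5 averaged 10.6 ± 0.10 in hIAPP_Tg and 10.47 ± 0.25 in wild-type mice (SD, n = 3 per genotype; 95% interval of the log2 difference -0.19 to 0.46, limma adjusted p = 0.818).

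Slc30a7 gave the single zinc probe set with an unadjusted p under 0.05. That probe set, 1450697_at, read 7.9, 8.2 and 8.1 in hIAPP_Tg islets, against 7.4, 7.9 and 7.7 in wild-type islets. The genotypes touched at 7.9, and the other hIAPP_Tg values lay above every wild-type value. Slc30a7 averaged 8.07 ± 0.15 in hIAPP_Tg and 7.67 ± 0.25 in wild-type islets on this probe set (SD, n = 3 per genotype; log2 difference 0.40, SE 0.14, limma unadjusted p = 0.0311, adjusted p = 0.620). The brighter Slc30a7 probe set (1435717_at) read 9.5, 9.8 and 9.6 in hIAPP_Tg and 9.4, 9.6 and 9.5 in wild-type islets. There the Slc30a7 difference was 0.13 (95% interval -0.10 to 0.37, limma adjusted p = 0.770), so the probe sets of this gene differed in size and shared the sign. With 1 probe set in 23 at this level and 7.33% over the table, the share among the zinc genes is near the background.

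Slc30a1 encodes ZnT1, which exports zinc across the plasma membrane and is itself induced by MTF1. Its brighter probe set (1436164_at) read 8.8, 9.0 and 9.0 in hIAPP_Tg islets, against 9.0, 8.7 and 8.7 in wild-type islets. The other (1422786_at) read 6.6, 6.6 and 6.4 in hIAPP_Tg and 6.7, 6.4 and 6.2 in wild-type islets. On both probe sets wild-type replicate 1 was the highest wild-type array, and the genotypes overlapped. The Slc30a1 differences were 0.13 (95% interval -0.13 to 0.40, limma adjusted p = 0.791) and 0.10 (95% interval -0.23 to 0.43, limma adjusted p = 0.874). Without wild-type replicate 1 the brighter probe set of Slc30a1 differed by 0.23 and did not pass either (limma unadjusted p = 0.0407, adjusted p = 0.514).

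Among the ZnT genes as a group, 5 of 6 probe sets lay above 0 and 1, that of Slc30a8, below. Their median difference was 0.13, beside 0 over all probe sets, and none of the 6 passed. On the brightest probe set of each of the 4 genes 3 lay above 0 and 1 below.

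**Figure D2:**
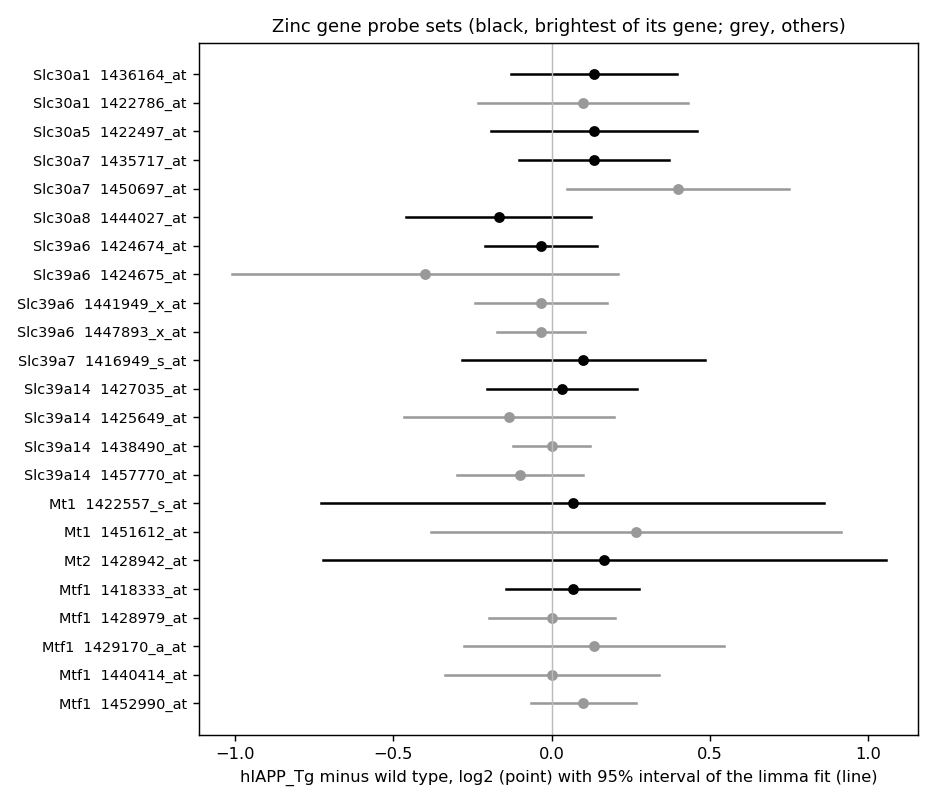
Difference of hIAPP_Tg minus wild type on the log2 scale (x axis, points) with the 95% interval of the limma fit (lines) for the 23 zinc gene probe sets, the brightest of each gene in black. The interval of 1 probe set of Slc30a7 lies above 0, at 0.050 to 0.75, and those of Mt1, Mt2 and 1 probe set of Slc39a6 are the widest.

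Slc39a7 encodes ZIP7, which releases zinc from the endoplasmic reticulum. Its probe set (1416949_s_at) read 10.9, 10.9 and 10.7 in hIAPP_Tg islets, against 10.4, 11.0 and 10.8 in wild-type islets. Wild-type replicate 1 was again low, the other 5 arrays lay between 10.7 and 11.0, and without wild-type replicate 1 the Slc39a7 difference of 0.10 became -0.067. Slc39a7 averaged 10.83 ± 0.12 in hIAPP_Tg and 10.73 ± 0.31 in wild-type mice (SD, n = 3 per genotype; 95% interval of the log2 difference -0.28 to 0.48, limma adjusted p = 0.908).

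Slc39a6, the gene of the plasma membrane importer ZIP6, had 4 probe sets that did not move alike between mice. The brightest (1424674_at) read 9.6, 9.7 and 9.7 in hIAPP_Tg and 9.7, 9.8 and 9.6 in wild-type islets, with a difference of -0.033 (95% interval -0.21 to 0.14, limma adjusted p = 0.908). A dimmer Slc39a6 probe set (1424675_at) read 6.8, 6.7 and 6.4 in hIAPP_Tg islets, against 7.6, 6.8 and 6.7 in wild-type islets. Its difference of -0.40 (95% interval -1.01 to 0.21, limma adjusted p = 0.720) leaned on the value 7.6 of wild-type replicate 1. The remaining Slc39a6 probe sets (1441949_x_at and 1447893_x_at) averaged 3.82 over all arrays, below the array median (5.7), so whether they measure signal is unknown. Their suffix marks probes that may bind other transcripts too.

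Slc39a14 encodes ZIP14, which carries zinc, iron and manganese and is induced by interleukin-6 in mouse liver. Its brightest probe set (1427035_at) read 7.6, 7.5 and 7.7 in hIAPP_Tg islets, against 7.4, 7.7 and 7.6 in wild-type islets. The ranges of the genotypes nearly coincided, with a Slc39a14 difference of 0.033 (95% interval -0.20 to 0.27, limma adjusted p = 0.915). The other 3 probe sets of Slc39a14 (1425649_at, 1438490_at and 1457770_at) averaged 5.4, 5.1 and 4.45 over all arrays, again under the array median. Their differences were -0.13, 0 and -0.10, and 1438490_at read 5.1 on every array. Over the 9 probe sets of the ZIP genes 2 lay above 0, 6 below and 1 at 0, and none passed. Of these 9, 5 lay under the array median. On the brightest probe set of each of the 3 genes 2 lay above 0 and 1 below, with a median difference of 0.033.

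Mt1 and Mt2 are neighbours on the mouse chromosome, in a cluster that also holds Mt3 and Mt4. They are induced by zinc, cadmium, glucocorticoids and inflammation in mouse tissues. The sequences shown are the promoter windows of Mt1, Mt2 and Slc30a1 from RefSeq (GRCm38.p6), because MTF1 is known to activate these 3 genes in mouse cells. Each window of 300 bases runs from 250 bases before the start site used for it and is given in the direction of the gene, 5′ to 3′. For Mt1 and Slc30a1 the gene in RefSeq begins upstream of that site, inside the window, at 94178883 and 191906697. Positions in these windows hold for the start site used and not for every start of the gene. Capitals mark matches to the core of the metal response element, searched as TGCACNC or TGCGCNC on both strands, where N is any base. A match on the opposite strand reads as the reverse complement, and no matches overlapped in these windows.
Mt1, chr8:94178839-94179138, + strand: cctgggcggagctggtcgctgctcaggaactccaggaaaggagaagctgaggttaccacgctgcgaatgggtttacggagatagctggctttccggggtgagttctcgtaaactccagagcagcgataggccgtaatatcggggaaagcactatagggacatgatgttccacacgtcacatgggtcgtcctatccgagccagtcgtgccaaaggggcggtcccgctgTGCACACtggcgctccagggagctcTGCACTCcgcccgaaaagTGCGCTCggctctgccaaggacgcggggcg
Mt2, chr8:94172368-94172667, + strand: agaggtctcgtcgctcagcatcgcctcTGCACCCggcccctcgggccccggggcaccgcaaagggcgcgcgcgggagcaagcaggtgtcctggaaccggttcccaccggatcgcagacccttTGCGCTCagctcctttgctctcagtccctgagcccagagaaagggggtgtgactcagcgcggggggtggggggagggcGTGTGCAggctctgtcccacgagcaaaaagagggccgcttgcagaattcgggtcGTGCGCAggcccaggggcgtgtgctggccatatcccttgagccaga
Slc30a1, chr1:191906531-191906830, + strand: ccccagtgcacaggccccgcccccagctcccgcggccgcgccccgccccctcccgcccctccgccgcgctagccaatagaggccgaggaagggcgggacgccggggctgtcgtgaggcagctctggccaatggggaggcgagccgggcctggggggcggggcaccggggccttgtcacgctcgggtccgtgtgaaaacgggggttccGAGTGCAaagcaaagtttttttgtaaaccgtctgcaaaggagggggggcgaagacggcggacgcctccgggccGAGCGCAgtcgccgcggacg

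The window of Mt2 held 4 matches, that of Mt1 3 and that of Slc30a1 2. Over 32851 RefSeq promoter windows of the same length, 25.7% held at least 1 match, 7.11% at least 2, 1.97% at least 3 and 0.517% at least 4. Windows were on hand for 7 of the 10 members. Slc30a5 had 1 match, and Slc30a7, Slc39a7 and Mtf1 had 0, which says only that these letters are not in those windows. A match is a description of the letters and was not tested as a binding site.

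**Figure D3:**
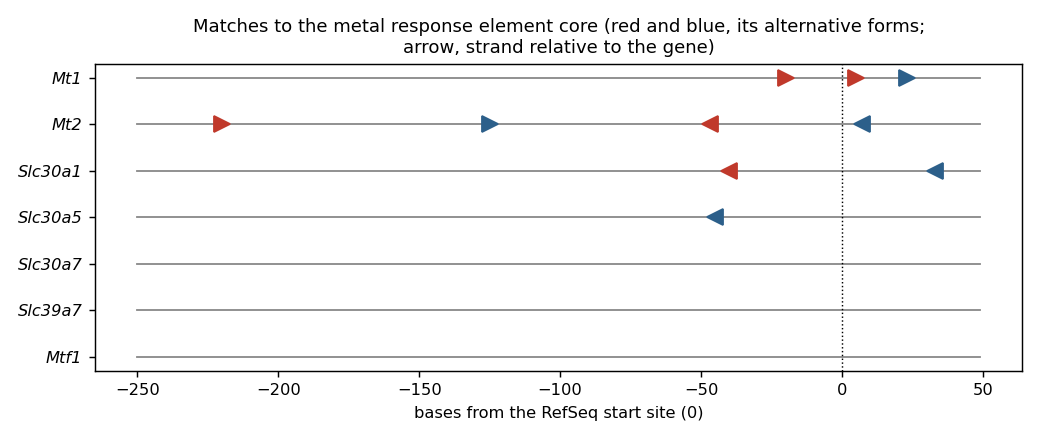
Position of each match to TGCACNC (red) or TGCGCNC (blue) in the promoter windows of 7 zinc genes, in bases from the RefSeq start site used for each window at 0, with arrowheads giving the strand relative to the gene. Mt1 has matches starting at -23, 2 and 20, and Mt2 at -223, -128, -50 and 4. The genes Mt1 and Slc30a1 begin upstream of the site used, so their positions depend on that choice.

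Metallothionein levels varied more than those of any transporter member on their brightest probe sets, and did so within each genotype. Mt1 (1422557_s_at) read 12.3, 12.8 and 12.8 in hIAPP_Tg islets, against 13.3, 12.3 and 12.1 in wild-type islets. Mt2 (1428942_at) read 10.9, 11.5 and 11.4 in hIAPP_Tg islets, against 11.9, 10.9 and 10.5 in wild-type islets. For both genes wild-type replicate 1 was the highest of the 6 arrays and wild-type replicate 3 the lowest, so the hIAPP_Tg values lay inside the wild-type range.

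Neither metallothionein passed. Mt1 averaged 12.63 ± 0.29 in hIAPP_Tg and 12.57 ± 0.64 in wild-type mice (SD, n = 3 per genotype; log2 difference 0.067, 95% interval -0.73 to 0.86, limma adjusted p = 0.969). Mt2 averaged 11.27 ± 0.32 in hIAPP_Tg and 11.1 ± 0.72 in wild-type mice (SD, n = 3 per genotype; log2 difference 0.17, 95% interval -0.72 to 1.06, limma adjusted p = 0.909). As ratios these intervals are 0.604 to 1.82 for Mt1 and 0.606 to 2.08 for Mt2. They are wider than those of the brightest probe sets of the other 8 members, and differences inside them are compatible with these arrays. The second Mt1 probe set (1451612_at) read 8.1, 7.9 and 7.8 in hIAPP_Tg and 8.3, 7.4 and 7.3 in wild-type islets, with a difference of 0.27 (95% interval -0.38 to 0.92, limma adjusted p = 0.818). Like the first, its highest and lowest arrays were wild-type replicates 1 and 3.

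Leaving out single mice turned the sign of the metallothionein differences. Without wild-type replicate 1 Mt1 differed by 0.43 and Mt2 by 0.57, at limma adjusted p of 0.587 and 0.563. Without wild-type replicate 3 the values were -0.17 for Mt1 and -0.13 for Mt2, and Mt1 was also just under 0, at -0.067, without wild-type replicate 2 and, at -0.017, without hIAPP_Tg replicate 5 or 6.

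Mt1 and Mt2 were correlated across the 6 mice, and each was set beside the exocrine markers of the islet preparations. These relations were chosen after the values were seen, 5 were computed, and p-values are from exact two-sided permutation tests with Benjamini-Hochberg adjustment over the 5. Between Mt1 and Mt2 Pearson's r was 0.987 (permutation p = 0.0111, adjusted p = 0.0278) and Spearman's rho 0.985 (permutation p = 0.0111, adjusted p = 0.037) over 6 arrays. Without the 2 arrays farthest from the Mt1 median, r was 0.992. Both genes may be read in part by shared probes, since their transcripts are alike and 1422557_s_at carries a suffix for probes shared by several transcripts.

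Of 20 acinar markers, the digestive enzyme and regulator genes of the exocrine pancreas, 16 were measured. Their mean level was 11.11, 9.06 and 10.38 in hIAPP_Tg islets, against 10.14, 11.33 and 11.66 in wild-type islets. In each genotype the mouse with the lowest acinar mean had the highest Mt2 value and the mouse with the highest acinar mean the lowest. For the acinar mean and Mt2, r was -0.801 (permutation p = 0.0444, adjusted p = 0.0741) and rho -0.928 (permutation p = 0.0167, adjusted p = 0.037) over 6 arrays, and r was -0.951 without the 2 arrays farthest from the median. For the acinar mean and Mt1, r was -0.738 (permutation p = 0.0889, adjusted p = 0.0889) and rho -0.883 (permutation p = 0.0333, adjusted p = 0.0417) over 6 arrays, and -0.951 without those 2. No correlation was computed within a genotype, which has 3 mice. For both genes rho passed an adjusted p of 0.05 and r did not, and the values tested are those that prompted the comparison. With the acinar mean as a covariate the Mt1 difference was -0.31 and that of Mt2 -0.27, at limma adjusted p of 0.843 and 0.865, so neither passed with it.

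Wild-type replicate 1 also stood apart in fibroblast markers. The mean over the 6 fibroblast markers, all measured, was 8.0, 7.88 and 7.85 in hIAPP_Tg islets, against 8.85, 8.02 and 7.97 in wild-type islets, with the highest value in the mouse with the highest Mt1 and Mt2. The part of these cells in the metallothionein values was not tested.

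Slc30a1, which shares MTF1 as a regulator with the metallothioneins, had an order of mice close to that of Mt2, over a smaller range. Between Mt2 and Slc30a1 r was 0.907 (permutation p = 0.0667, adjusted p = 0.0833) and rho 0.892 (permutation p = 0.0667, adjusted p = 0.0667) over 6 arrays, so this relation did not pass. Slc30a1 covered 0.30 on the log2 scale, beside 1.4 for Mt2.

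**Figure D4:**
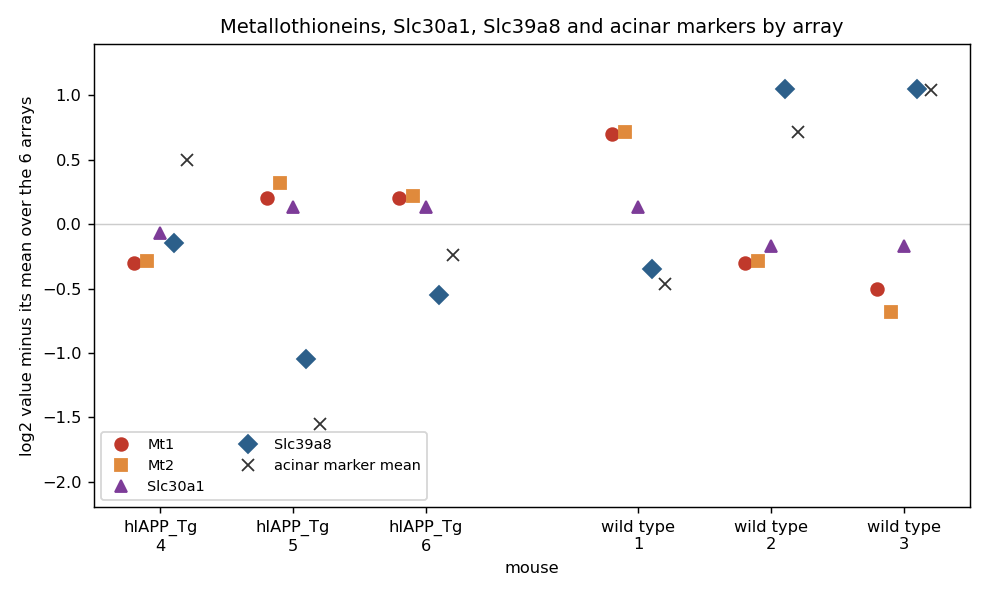
Log2 value minus its mean over the 6 arrays (y axis) for the brightest probe sets of Mt1, Mt2, Slc30a1 and Slc39a8 and for the mean of 16 acinar markers, by mouse (x axis, hIAPP_Tg on the left). Mt1 and Mt2 lie on one side of 0 and the acinar mean on the other in each of the 6 mice.

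Mtf1 encodes the zinc-sensing factor itself. Its brightest probe set (1418333_at) read 8.1, 8.2 and 8.3 in hIAPP_Tg islets, against 8.0, 8.2 and 8.2 in wild-type islets. The groups overlapped with an Mtf1 difference of 0.067 (95% interval -0.14 to 0.28, limma adjusted p = 0.862). The other 4 Mtf1 probe sets (1428979_at, 1429170_a_at, 1440414_at and 1452990_at) differed by 0, 0.13, 0 and 0.10. Of these, 1440414_at and 1452990_at lay under the array median, with means of 4.7 and 4.45. The Mtf1 value of 7.1 on 1429170_a_at in wild-type replicate 1 was the lowest for that probe set, beside 7.5 to 7.8 on the other 5 arrays.

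Other genes tied to MTF1 in mouse cells gave no call at an adjusted p under 0.05 either. Of 6 listed names 5 were measured (the remaining name is an older symbol of Selenow), and on their brightest probe sets 0 passed and 0 reached an unadjusted p under 0.05 (median difference 0.10, beside 0 over all named genes). Selenow, a selenoprotein gene, read 10.0, 10.3 and 10.2 in hIAPP_Tg and 10.1, 10.0 and 9.7 in wild-type islets. Ndrg1, known to be induced by hypoxia and metals, had a difference of -0.10 on the brightest probe set, beside -0.23 to -0.47 on its 4 dimmer ones, whose arrays did not overlap between genotypes and which did not pass (limma adjusted p = 0.552 to 0.632). Dimmer probe sets of Hif1a (1416035_at, 0.33) and Gclc (1455959_s_at, 0.23) lay on the other side of 0, at limma adjusted p of 0.552 and 0.620. Over all 15 probe sets of these genes 2 were higher and 3 lower at an unadjusted p under 0.05 (background 3.82% higher and 3.51% lower). The arrays did not overlap for 5 of the 15, the 4 of Ndrg1 and 1416035_at of Hif1a, against 6.66% of all probe sets. Selenow, Ndrg1, Hif1a and Gclc were named after their values were seen.

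Another list held further Slc30a and Slc39a genes, Mt3 and Mt4, and added Tmem163, a zinc transporter gene, and Trpm7, a channel kinase gene, which belong to neither family. All 21 genes were measured, with 31 probe sets. Here too 0 passed an adjusted p of 0.05. Over the brightest probe sets 9 differences lay above 0, 11 below and 1 at 0, with a median of -0.033. At an unadjusted p under 0.05 there was 1 gene of 21, Slc39a8, and it was lower in hIAPP_Tg islets (background over brightest probe sets 3.45% lower and 5.02% higher). The brightest probe sets of 2 of the 21 did not overlap, beside 7.7% of named genes. Over all 31 probe sets 2 were higher and 2 lower at this level and 4 did not overlap (background over all probe sets 3.82% higher, 3.51% lower and 6.66% without overlap). Both lower ones were probe sets of the same gene, Slc39a8. Both higher ones, of Slc39a3 (1417882_at, 0.20) and Trpm7 (1431355_s_at, 0.30), were dimmer probe sets of their genes and are named after their values were seen.

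Slc39a8 encodes ZIP8, a plasma membrane and lysosomal importer of zinc and manganese. Its brighter probe set (1416832_at) read 6.4, 5.5 and 6.0 in hIAPP_Tg islets, against 6.2, 7.6 and 7.6 in wild-type islets. Wild-type replicates 2 and 3 were high, while wild-type replicate 1 lay inside the hIAPP_Tg range. Slc39a8 averaged 5.97 ± 0.45 in hIAPP_Tg and 7.13 ± 0.81 in wild-type mice (SD, n = 3 per genotype; log2 difference -1.17, SE 0.43, limma unadjusted p = 0.0332, adjusted p = 0.620). The dimmer probe set of Slc39a8 (1448482_at) averaged 4.27 in hIAPP_Tg mice and 4.57 in wild-type mice and had the same order of wild-type mice. Its difference was -0.30 (limma unadjusted p = 0.0456, adjusted p = 0.632), at levels under the array median.

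The mice with high Slc39a8 were also those with high acinar markers. For the acinar mean and Slc39a8, r was 0.896 (permutation p = 0.0111, adjusted p = 0.0278) and rho 0.928 (permutation p = 0.0222, adjusted p = 0.037) over 6 arrays, and r was 0.792 without the 2 arrays farthest from the median. With the acinar mean as a covariate the Slc39a8 difference was -0.61 (limma unadjusted p = 0.0440, adjusted p = 0.750). With array quality weights it was -1.41 (limma unadjusted p = 0.00659, adjusted p = 0.333). Without wild-type replicate 1 it was -1.63. Without hIAPP_Tg replicate 5, wild-type replicate 2 or wild-type replicate 3 it was -0.93 each time, and the limma unadjusted p was then 0.133 to 0.138.

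**Figure D5:**
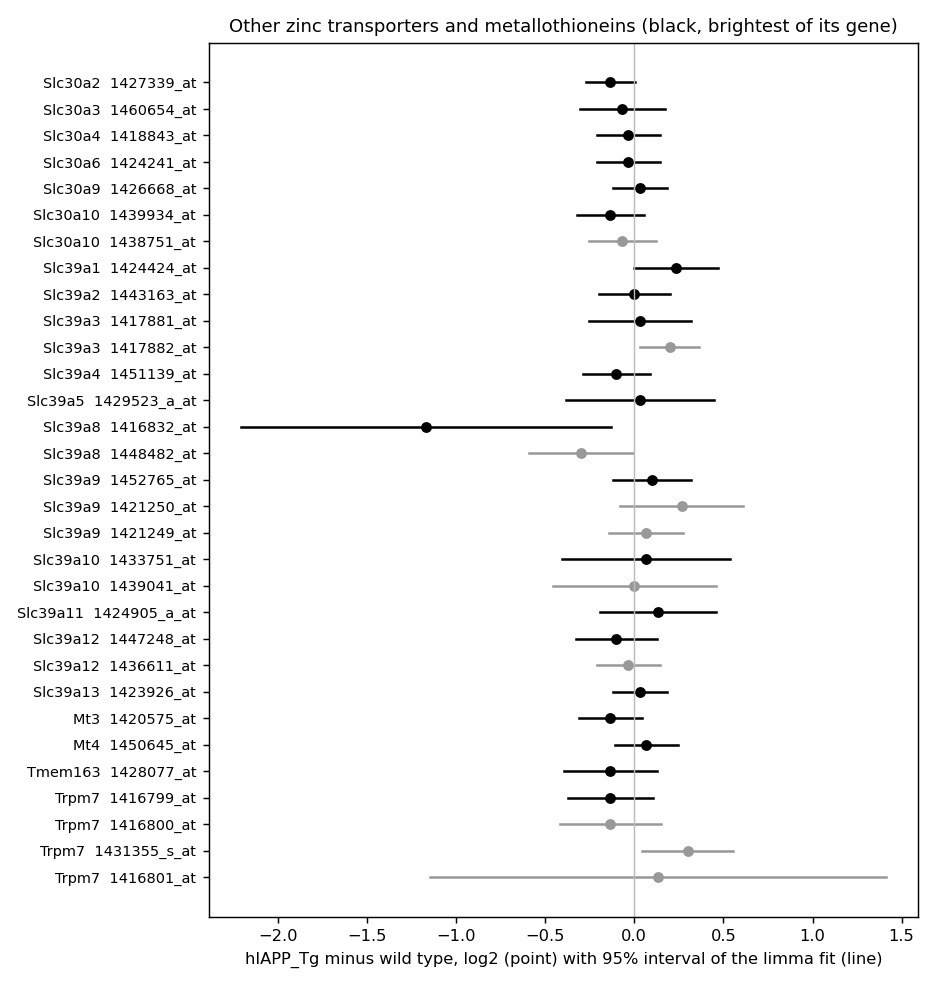
Difference of hIAPP_Tg minus wild type on the log2 scale (x axis, points) with the 95% interval of the limma fit (lines) for 31 probe sets of the 21 other zinc genes, the brightest of each gene in black. Slc39a8 stands apart at -1.17 with an interval of -2.21 to -0.13, and the other brightest probe sets lie between -0.13 and 0.23.

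Mt3, the metallothionein known from brain, read 6.9, 6.7 and 6.8 in hIAPP_Tg and 6.9, 6.9 and 7.0 in wild-type islets, so it did not follow the order of mice seen for its neighbours Mt1 and Mt2. Mt4, known from stratified epithelium, averaged 3.87 over all arrays, under the array median. Slc30a2, a vesicle transporter of secretory cells such as acinar cells, read 5.8 on every hIAPP_Tg array, against 5.9, 5.9 and 6.0 in wild-type islets. Its arrays did not overlap, but the Slc30a2 difference of -0.13 is close to the rounding step of 0.1 of the deposited values and did not pass (limma adjusted p = 0.632).

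Slc30a3, the synaptic vesicle zinc transporter gene, differed by -0.067 and Slc30a10, a manganese exporter gene near the floor of the scale at 3.9, by -0.13. Slc39a5, which encodes an importer of pancreas and intestine, differed by 0.033 and Slc39a10, an importer gene that MTF1 represses in mouse cells, by 0.067. Slc39a10 read 9.2, 8.6 and 8.7 in hIAPP_Tg islets, against 8.5, 8.8 and 9.0 in wild-type islets, and thus had its lowest value in wild-type replicate 1, where Mt1 and Mt2 had their highest. None of these 4 passed, with limma adjusted p of 0.711 to 0.974. With the acinar mean as a covariate Slc39a5 differed by 0.25 (limma unadjusted p = 0.0473) and Slc39a10 by 0.31 (limma unadjusted p = 0.0425). Both had a limma adjusted p of 0.750 there, and Slc30a3 and Slc30a10 did not reach an unadjusted p under 0.05.

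Transporters and stores of copper, iron and manganese were set beside the zinc genes. Of 19 listed genes 17 were measured, 0 passed, and at an unadjusted p under 0.05 2 of 17 were higher and 1 lower on the brightest probe sets (background 5.02% higher and 3.45% lower; median difference 0). The arrays did not overlap for 5 of the 17, beside 7.7% of named genes. They were Atp7a, Ccs, Fth1, Cp and Slc11a1, and Slc11a1 is named here after its values were seen. Atp7a, a copper exporter of the secretory pathway, read 10.0, 10.1 and 10.3 in hIAPP_Tg islets, against 10.4, 10.8 and 10.8 in wild-type islets, without overlap (log2 difference -0.53, limma adjusted p = 0.503). A second probe set of Atp7a overlapped, with a difference of -0.33. Cp, named after its values were seen, had the largest difference of the list, -0.77 without overlap (limma adjusted p = 0.632). It read 7.5, 7.5 and 7.3 in hIAPP_Tg islets, against 9.0, 7.7 and 7.9 in wild-type islets. The dimmer Cp probe sets differed by -1.03 to -0.10, and none passed. Ccs, which delivers copper to superoxide dismutase, differed by 0.17 and the ferritin heavy chain gene Fth1 by 0.27, at limma adjusted p of 0.557 and 0.620. Macrophages also hold ferritin, and the mean over the 16 macrophage markers, all measured, was 8.17 to 8.31 in hIAPP_Tg and 7.1 to 7.25 in wild-type islets. Genotype and macrophage content cannot be told apart for Fth1 in these 6 mice.

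Of the insulin granule genes, the compartment that Slc30a8 supplies, 13 of 15 were measured and 0 passed. At an unadjusted p under 0.05 3 of 13 were higher and 0 lower on the brightest probe sets (background 5.02% higher), with a median difference of 0. They were Chgb, a granin of the granule matrix (0.20), Scg3, which helps sort granins (0.17), and the amidating enzyme gene Pam (0.40), at limma adjusted p of 0.552 to 0.620. For Chgb and Scg3 the genotypes did not overlap (2 of 13, beside 7.7% of named genes), while the Slc30a8 value lay on the other side of 0. This list was also chosen with earlier results of these data known, so its shares are descriptive. Ins2 was at 15.1 on every array, the highest value deposited, so its probe set may be near its limit.

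By likeness of pattern, measured as Pearson's r over the 6 arrays among 3289 genes that varied by at least 0.5 and lay at or above the array median, Oma1 was first for both Mt1 (r = 0.985) and Mt2 (r = 0.997). Oma1, a protease gene of the inner mitochondrial membrane, read 7.8, 8.1 and 8.1 in hIAPP_Tg islets, against 8.3, 7.8 and 7.6 in wild-type islets. Next came Vegfb and P4ha1 for Mt1 (r = 0.978 and 0.972) and Wdfy4 and Tnip1 for Mt2 (both r = 0.975). For Slc30a8 they were Nmrk2 (r = 0.982), Tiam1 (r = 0.976) and Bcl2l14 (r = 0.975), each lowest in hIAPP_Tg replicate 5. With 6 arrays and this many genes, values this high describe the arrays and carry no test.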

How the data were processed

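The deposited table holds log2 expression values of 45101 probe sets on 6 arrays, which the authors made by RMA (affy), according to what is recorded per the submitters' processing notes, with versions not given in the sources used here. They span 2.9 to 15.1 in steps of 0.1, and the median is 5.7 on all 6 arrays. RMA gives all arrays like distributions, so values are relative to the other RNA of an array, and it compresses differences near the floor and the top. Arrays have no read depth, and their number limits the precision. After 64 control probe sets were left out, 45037 were fitted on genotype alone by limma 3.58.1 (R 4.3.3), using eBayes after lmFit and two-sided p-values, which were adjusted by Benjamini-Hochberg over all 45037 with a threshold of 0.05. Each p-value weighs the genotype difference against the spread between mice of one genotype. In limma that spread is drawn toward its value over all probe sets.

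Symbols came from the platform annotation, looked up by Entrez number in RefSeq of GRCm38.p6, which changed 0 of them; 34945 probe sets had 1 symbol, 932 several and 9160 none. A gene was represented by its brightest probe set on average. All 10 members were named. Of each other list, genes past the threshold or else up to 6 with the smallest unadjusted p under 0.05 were named, and 7 zinc genes always. Members and lists were chosen with earlier results of these data known. Groups and replicate numbers came from the sample titles. The fit was tested on simulated data. Alternatives were quantile normalization, median centring, a filter on dim probe sets, other variance priors, array weights, averaged probe sets, acinar or macrophage markers as a covariate and leaving out each array. Correlations used scipy 1.17.1 and figures matplotlib 3.10.9.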

Additional observations from a re-analysis of the deposited data

How the results depend on the processing

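No paired analysis was possible because the genotypes share no replicate numbers. Under all 16 alternatives 0 zinc gene probe sets passed an adjusted p of 0.05, and the smallest adjusted p of a member's brightest probe set was 0.476. The count at an unadjusted p under 0.05, 1 of 23, was 0 with the ordinary linear model, with averaged probe sets (10 genes), and with the acinar or the macrophage covariate, and 0 to 2 with 1 array left out. Over all probe sets 13 passed, against 30 with quantile normalization, 51 with a robust prior, 128 with the ordinary linear model, 26 with array weights, 3 with the acinar and 0 with the macrophage covariate, and 1 to 4 with 1 array left out. Leaving the macrophage covariate aside, 5 of 10 members (Slc30a1, Slc30a5, Slc30a7, Slc30a8 and Mtf1) never took the opposite sign. Ranges with 1 array left out were -0.17 to 0.43 for Mt1, -0.13 to 0.57 for Mt2, -0.083 to 0.017 for Slc39a6, -0.067 to 0.23 for Slc39a7, -0.05 to 0.10 for Slc39a14, -0.083 to 0.22 for Slc39a5 and -0.12 to 0.18 for Slc39a10. The sign also turned with array quality weights for Slc39a6 (0.016), Slc39a10 (-0.075) and Slc39a5 (-0.027), with averaged probe sets for Slc39a14 (-0.05), and with the acinar covariate for Mt1 (-0.31) and Mt2 (-0.27). In these cases the cause was not tested.

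The macrophage mean has a correlation of 0.992 with genotype, so as a covariate it leaves almost no variation from which to estimate the genotype difference, and values under it cannot be told apart from macrophage content. The member median was then -0.38, and 20 of 30 named genes changed sign: Slc30a1 (-1.13), Slc30a5 (-0.23), Slc30a7 (-0.53), Slc30a8 (0.22), Mt1 (-4.32), Mt2 (-5.15), Mtf1 (-0.14), Ccs (-0.041), Cebpb (-0.40), Chgb (-0.15), Errfi1 (-1.17), Fkbp5 (-1.08), Fth1 (-1.26), Mt3 (0.75), Sgk1 (-0.69), Slc30a10 (0.51), Slc30a2 (0.26), Slc30a3 (0.66), Slc39a8 (3.52) and Tsc22d3 (-0.0058). None of them passed.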

Other observations

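Glucocorticoid and acute phase genes, which share inducers with Mt1, Mt2 and Slc39a14, mostly had higher values in hIAPP_Tg islets, without passing the test. All 19 listed genes were measured, 17 differences lay above 0 and 2 below, and the median was 0.40, beside 0 over all named genes. At an unadjusted p under 0.05 13 of 19 were higher and 0 lower on the brightest probe sets (background 5.02% higher), and 0 passed an adjusted p of 0.05 in limma. Tsc22d3, a glucocorticoid-induced leucine zipper gene, read 9.2, 9.5 and 9.3 in hIAPP_Tg islets, against 8.7 on each wild-type array (log2 difference 0.63, limma adjusted p = 0.182). Fkbp5, which encodes a chaperone of the glucocorticoid receptor, read 9.1, 9.9 and 9.4 in hIAPP_Tg islets, against 8.9, 8.7 and 8.8 in wild-type islets (0.67). The kinase gene Sgk1 differed by 0.60, the clock gene Per1 by 0.70, the transcription factor gene Cebpb by 0.40 and Errfi1, a feedback inhibitor of the EGF receptor, by 0.40, at limma adjusted p of 0.508 to 0.552. Cebpd (1.13, the largest difference of the list), Klf9 (0.63), Il6ra (0.60) and Socs3 (0.57) were also higher at an unadjusted p under 0.05. So were Ddit4 (0.43), Dusp1 (0.40) and Nr3c1 (0.17), and from Cebpd on limma adjusted p was 0.552 to 0.632. The remaining genes of the list did not reach that level. Lcn2, Saa3 and Hp differed by 0.033, -0.033 and 0.10, with means under the array median (4.05, 5.05 and 4.88). Stat3 differed by 0.13, Osmr by 0.17 and Zbtb16 by -0.067. Except for Tsc22d3, Fkbp5, Sgk1, Per1, Cebpb and Errfi1, these genes were named after their values were seen. For 10 of the 19 the arrays of the genotypes were apart, against 7.7% of all named genes, while Mt1, Mt2 and Slc39a14 overlapped. The list was chosen with earlier results of these data known, so these contrasts with the background describe it and do not test it. The list mean was 8.11, 8.48 and 8.26 in hIAPP_Tg and 7.97, 7.88 and 7.78 in wild-type islets. Macrophage markers, at 8.17 to 8.31 in hIAPP_Tg and 7.1 to 7.25 in wild-type islets, moved with genotype as well, and their part in these values was not tested.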
